A study of Mus musculus with 16 samples.

Results

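The genes described are 9 of the 55356 named genes in the deposited count table: the class II chain genes H2-Aa, H2-Ab1 and H2-Eb1, the DM chaperone genes H2-DMa, H2-DMb1 and H2-DMb2, the DO genes H2-Oa and H2-Ob, and Ciita. They were taken by name and not by a rule on their values, but with earlier results of these data known. MHC class II molecules are pairs of an alpha and a beta chain that present peptides from endosomes to CD4+ T cells. Dendritic cells, B cells and activated macrophages carry them, and in atherosclerotic arteries plaque macrophages and dendritic cells are known to do so. The invariant chain Cd74 holds the groove until DM exchanges its fragment for a peptide, DO restrains DM, and the transactivator Ciita, induced by interferon gamma, switches these genes on through a shared promoter module.

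Polyadenylated RNA was measured in sections of the brachiocephalic artery, a plaque-prone branch of the aortic arch, from 16 female mice, all without Apoe. The 4 groups of 4 mice each were Apoe-/-Mif-/- after 42 weeks of high-cholesterol diet, Apoe-/- after 42 weeks, Apoe-/-Mif-/- after 24 weeks and Apoe-/- after 24 weeks. Mif encodes macrophage migration inhibitory factor, a cytokine for which Cd74 is a receptor, and the title of the series names aging and protection from atherosclerosis in Mif deficiency. The diet held 21.2% fat and 0.2% cholesterol in every group and is named HFD in the sample titles. The diet began at 6 weeks of age in every group, so time on diet and age cannot be told apart. Lysates of 3 to 4 whole sections of 1 mouse made a library, so plaque and vessel wall were read together. In such bulk samples fewer cells of a type and less RNA per cell cannot be told apart.

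Libraries held 378066 to 8649525 counts. Apoe-/- library 1 at 42 weeks was the shallowest, and mitochondrial transcripts took 0.751% to 10.2%. Mif averaged 9.35 ± 5.06 CPM (a count scaled to a common library size; SD, n = 4) in Apoe-/-Mif-/- and 160.0 ± 116 CPM in Apoe-/- arteries at 42 weeks. At 24 weeks it averaged 12.8 ± 6.69 CPM in Apoe-/-Mif-/- and 141 ± 33.5 CPM in Apoe-/- arteries. Apoe-/- library 1 at 42 weeks held only 11 Mif counts (23.2 CPM), against 130 to 301 CPM in the others of its group. The Apoe-/-Mif-/- libraries held at most 19.9 CPM of Mif. All Apoe-/-Mif-/- libraries at 24 weeks, 4 in number, carry the letter C in their library names and the other 12 carry B. The labels do not say what the letter stands for, and letter and group cannot be told apart for them. Smooth muscle and endothelial markers were detected in every group, 6 of 6 each. Apoe-/- library 4 at 24 weeks stood apart with 4116 CPM summed over the 8 T cell markers, against at most 285.5 CPM in any other library. The same library had the highest sum of 8 thymus markers, 658.6 CPM, followed by Apoe-/- library 1 at 24 weeks with 414.6 CPM. Whether these sections held thymus tissue was not tested. Differences were tested with edgeR's quasi-likelihood test over 10634 genes. A gene was called at a Benjamini-Hochberg adjusted p under 0.05. Of the 9 genes, 7 had enough counts to be tested, and H2-DMb2 and H2-Oa did not.

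The classical chains were the main class II transcripts. H2-Ab1, the beta chain of the I-A molecule, had the highest level per kilobase of transcript of the 9 genes in 15 of 16 libraries. H2-DMb1 was highest in the other library, Apoe-/-Mif-/- library 2 at 42 weeks. Over the 16 libraries the median level was 654 CPM per kilobase for H2-Ab1, 336 for H2-Aa, the alpha chain of I-A, and 181 for H2-Eb1, the beta chain of the I-E molecule. H2-DMb1 followed at 46.1 and H2-DMa at 11.02 CPM per kilobase, while H2-DMb2, Ciita, H2-Ob and H2-Oa had medians of 0.228 or less. The ranges of neighbours in this order overlapped, with H2-Ab1 at 162 to 1656, H2-Aa at 84.0 to 928 and H2-Eb1 at 10.3 to 559 CPM per kilobase.

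Class II promoters share an upstream module in which RFX binds the X box and NF-Y the Y box, a turned CCAAT box, and Ciita joins these bound factors. The start regions are shown because Ciita acts through such a module: H2-Eb1 and H2-Aa, a beta and an alpha chain gene, are given whole, and H2-DMb1, H2-DMb2, H2-Ob and H2-Oa as 60 bases around the marked letters. RefSeq windows of the mouse build GRCm38.p6, from 250 bases before to 50 after a gene's start, were on hand for 7 of the 9 genes (8 windows, since H2-DMa has 2), all on chromosome 17. The sequences lie at chr17:34305617-34305916 (+ strand) for H2-Eb1, chr17:34287774-34288073 (- strand) for H2-Aa, chr17:34153079-34153138 (+) for H2-DMb1, chr17:34145108-34145167 (+) for H2-DMb2, chr17:34238797-34238856 (+) for H2-Ob and chr17:34092285-34092344 (+) for H2-Oa. Capitals mark AACNNNTGA, a form of the X box, and GATTGG, the Y box, or its reverse complement CCAATC.
H2-Eb1: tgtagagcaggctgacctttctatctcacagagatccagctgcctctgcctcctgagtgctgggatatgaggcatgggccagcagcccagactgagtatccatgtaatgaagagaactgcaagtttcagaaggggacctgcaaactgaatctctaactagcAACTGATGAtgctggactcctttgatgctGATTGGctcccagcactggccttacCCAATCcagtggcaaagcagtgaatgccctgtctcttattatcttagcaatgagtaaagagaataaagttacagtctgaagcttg
H2-Aa: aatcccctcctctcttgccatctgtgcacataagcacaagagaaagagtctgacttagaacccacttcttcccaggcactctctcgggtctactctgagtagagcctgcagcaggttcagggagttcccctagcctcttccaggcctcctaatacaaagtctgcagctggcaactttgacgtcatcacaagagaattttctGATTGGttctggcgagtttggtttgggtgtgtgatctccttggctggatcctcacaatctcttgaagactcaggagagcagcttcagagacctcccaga
H2-DMb1: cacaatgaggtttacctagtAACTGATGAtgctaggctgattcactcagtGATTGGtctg
H2-DMb2: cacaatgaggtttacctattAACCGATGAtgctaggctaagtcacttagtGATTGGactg
H2-Ob: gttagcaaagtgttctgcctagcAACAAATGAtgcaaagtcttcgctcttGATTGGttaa
H2-Oa: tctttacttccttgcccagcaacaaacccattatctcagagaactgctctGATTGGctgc
Both strands were searched, and the motifs do not overlap each other in these windows. The letters were chosen after these sequences had been read. H2-Eb1, H2-DMb1, H2-DMb2 and H2-Ob each held AACNNNTGA followed by GATTGG, with 29, 30, 30 and 27 bases from start to start. H2-Aa and H2-Oa held GATTGG without AACNNNTGA, 1 H2-DMa window held GATTGG and the other held neither. In H2-Aa the letters aactttga, 1 base short of AACNNNTGA, lie before GATTGG. AACNNNTGA is only a form of the X box, so a window without it may still hold an X box. Among 32851 windows of the same length over all genes, 11.9% held AACNNNTGA, 16.1% held GATTGG, and 0.122% held both in this order 20 to 40 bases apart. A match describes letters only.

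**Figure D1:**
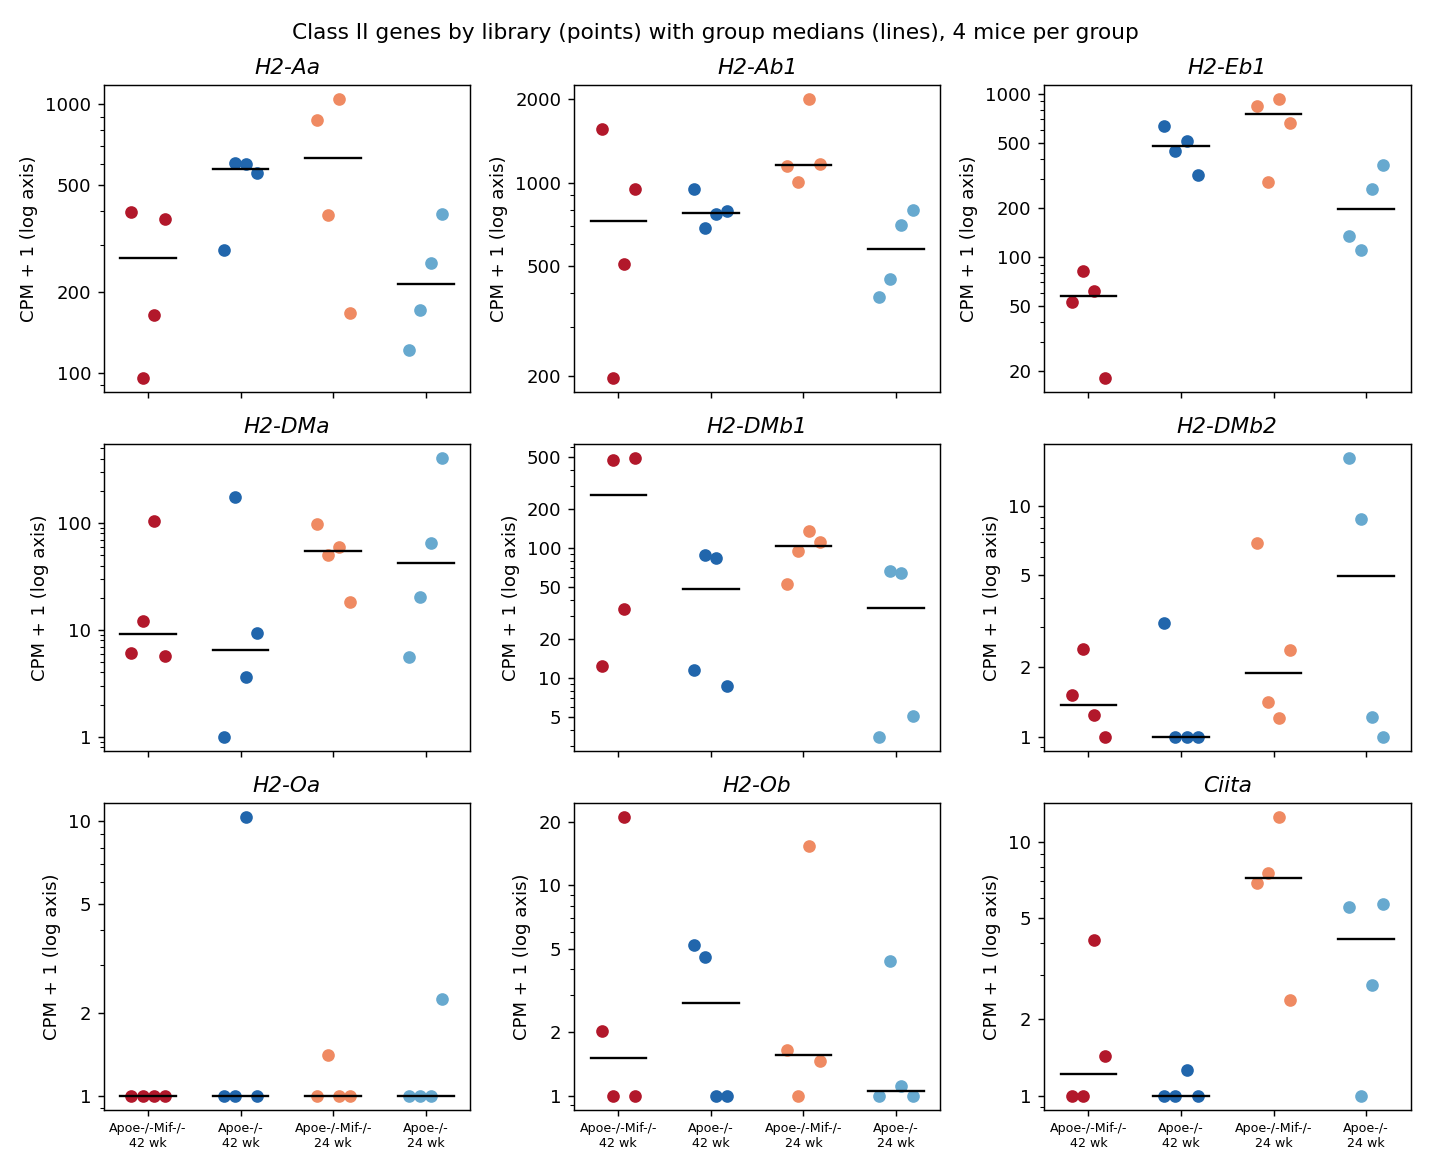
CPM plus 1 (log axis) of the 9 class II genes in each library (points, 4 mice per group), with the group median as a line. H2-Eb1 lies at 17.2 to 80.8 CPM in the Apoe-/-Mif-/- arteries at 42 weeks and at 109.6 CPM or more in the other 12 libraries.

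H2-Eb1 was low in the older arteries without Mif. It measured 52.4, 80.8, 61.3 and 17.2 CPM in Apoe-/-Mif-/- and 632, 444, 514 and 317 CPM in Apoe-/- arteries at 42 weeks. At 24 weeks it measured 838, 288, 933 and 662 CPM in Apoe-/-Mif-/- and 134, 109.6, 261 and 366 CPM in Apoe-/- arteries. The 4 Apoe-/-Mif-/- libraries at 42 weeks lay below all 12 others. H2-Eb1 was thus 1 of the 7 tested class II genes whose groups did not overlap with Apoe-/-Mif-/- lower at 42 weeks (background 1.03% of all tested genes), and 1 of 7 with 42 weeks lower than 24 weeks in Apoe-/-Mif-/- arteries (background 3.03%). At 24 weeks the genotypes overlapped, with 3 of 4 Apoe-/-Mif-/- libraries above every Apoe-/- library. The difference between the genotypes thus had opposite signs at the 2 times, and this was tested as an interaction.

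The interaction, the effect of Mif deletion at 42 weeks minus that at 24 weeks, was called for H2-Eb1 with a log2 value of -4.82 ± 1.11 (SE; edgeR adjusted p = 0.0388). H2-Eb1 was 1 of the 7 tested class II genes called, against a background of 0.686% of all tested genes in either direction and 0.103% as lower. The groups averaged 52.9 ± 26.6 CPM in Apoe-/-Mif-/- and 477 ± 132 CPM in Apoe-/- arteries at 42 weeks (SD, n = 4 each). At 24 weeks they averaged 680.3 ± 285 CPM in Apoe-/-Mif-/- and 218 ± 119 CPM in Apoe-/- arteries. The interaction spans both name letters. Mitochondrial transcripts took 6.01%, 7.30%, 1.94% and 8.64% in Apoe-/-Mif-/- and 2.98%, 1.57%, 1.74% and 3.55% in Apoe-/- libraries at 42 weeks, so 3 of the 4 libraries with low H2-Eb1 lay above every Apoe-/- library of that time. At 24 weeks they took 1.08% to 3.06% in Apoe-/-Mif-/- and 0.751% to 10.2% in Apoe-/- libraries. The part of this difference in the H2-Eb1 result was not tested. The call ended with RLE size factors (adjusted p = 0.0712) and with limma on the deposited variance-stabilised values or with voom weights (0.504 and 0.433), at log2 values of -4.57, -4.76 and -5.02. It also ended when 1 of 10 libraries was left out: Apoe-/- library 1, 2, 3 or 4 at 42 weeks (edgeR adjusted p = 0.0714, 0.0726, 0.0583 and 0.0590), Apoe-/-Mif-/- library 4 at 42 weeks (0.0527), Apoe-/- library 1 at 24 weeks (0.0671), or Apoe-/-Mif-/- library 1, 2, 3 or 4 at 24 weeks (0.0702, 0.0536, 0.0686 and 0.0705). The log2 value stayed between -5.21 and -4.48 over all 16 such fits. Without Apoe-/- library 4 at 24 weeks, rich in T cell and thymus markers, it was -5.21 (edgeR adjusted p = 0.0472).

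Of the 7 tested class II genes, none was called in the 4 single comparisons. For Mif deletion at 42 weeks, 4 lay above 0 (51.8% of all tested genes did) and 3 below, with a median log2 value of 0.01 (0.09 over all genes), and the background of called genes was 0.0%. No class II gene was higher without overlap, against 1.17% of all genes. An unadjusted p under 0.05 was reached by 1 of 7, against 17.3% of all tested genes. For Mif deletion at 24 weeks, 6 lay above 0 (background 45.1%) and 1 below (median 1.40, against -0.18), with 0.047% of all genes called, and 1 of 7 had an unadjusted p under 0.05, against 7.33%. None was lower without overlap, against 2.29%. For 42 against 24 weeks in Apoe-/-Mif-/- arteries, 2 lay above 0 (background 52.9%) and 5 below (median -0.82, against 0.12), with 0.122% called, and 1 of 7 had an unadjusted p under 0.05, against 13.1%. None was higher without overlap, against 1.35%. For 42 against 24 weeks in Apoe-/- arteries, 5 lay above 0 (background 47.3%) and 2 below (median 0.48, against -0.12), with 0.0% called, and 1 of 7, Ciita, had an unadjusted p under 0.05, against 12.2%. None was higher or lower there without overlap, against 1.06% and 3.09%. In the interaction 3 lay above 0 (background 54.0%) and 4 below, and 2 of 7 had an unadjusted p under 0.05, against 14.2%. In the 4 single comparisons, in the order given, DESeq2 called 1, 0, 1 and 0 of the tested class II genes, against 3.35%, 1.22%, 2.47% and 1.6% of all genes with a DESeq2 p-value. In the interaction it called 1, against 2.3%. Limma called 0 of them in each comparison. Over all genes it called 0.0% in each, except 0.0209% on the deposited values and 0.047% with voom for 42 against 24 weeks in Apoe-/-Mif-/- arteries. The comparisons share groups, so their values are not independent. Each library came from a separate mouse, so the p-values measure the spread between mice.

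**Figure D2:**
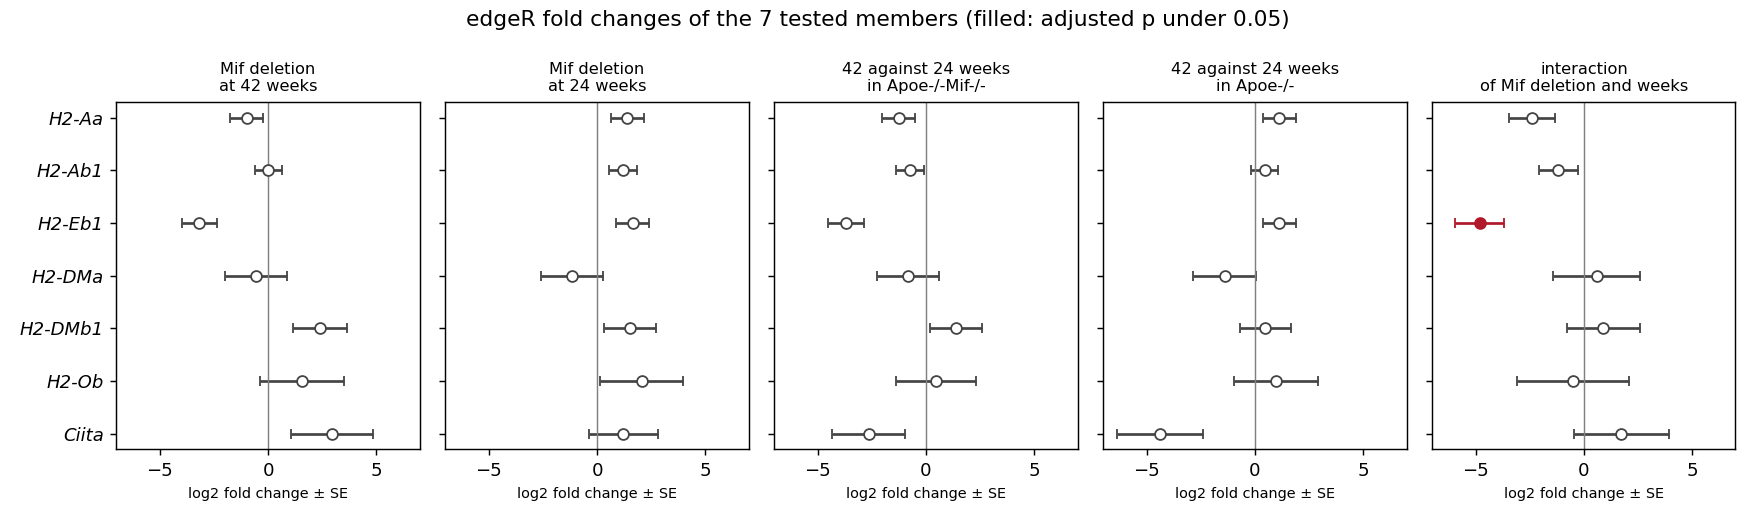
Log2 fold change (edgeR) of the 7 tested class II genes in the 5 comparisons, with a standard error derived from the F statistic, filled where called. H2-Eb1 has the interaction of -4.82 that was called, and -3.17 for Mif deletion at 42 weeks.

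The single comparisons behind the interaction did not pass in edgeR. At 42 weeks H2-Eb1 was 9.02-fold lower in Apoe-/-Mif-/- than in Apoe-/- arteries (log2 -3.17 ± 0.81 SE, unadjusted p = 0.000391 and adjusted p = 0.176 by edgeR). DESeq2 called it (log2 -2.85, adjusted p = 0.0120), while limma did not on the deposited values or with voom (adjusted p = 0.389 and 0.998). All libraries at 42 weeks carry the letter B. In Apoe-/-Mif-/- arteries H2-Eb1 was 12.9-fold lower after 42 than after 24 weeks (log2 -3.69 ± 0.83, edgeR adjusted p = 0.0607). That difference was called with robust dispersion estimates (adjusted p = 0.0481), without a filter on low counts (0.0244), with DESeq2 (0.00581), and in edgeR without Apoe-/- library 2 at 24 weeks (0.0464). The log2 value of Mif deletion at 24 weeks was 1.64 ± 0.77 (adjusted p = 0.650), and that of 42 against 24 weeks in Apoe-/- arteries was 1.13 ± 0.76 (adjusted p = 0.576).

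H2-Aa, the I-A alpha chain, showed the same order of group means as H2-Eb1 except between its lowest groups. It measured 397, 94.7, 163 and 372 CPM in Apoe-/-Mif-/- and 285, 602, 599 and 552 CPM in Apoe-/- arteries at 42 weeks. The younger arteries had 875, 387, 1046 and 167 CPM in Apoe-/-Mif-/- and 121, 170.0, 256 and 389 CPM in Apoe-/- arteries. The genotypes overlapped at both times. Its interaction had a log2 value of -2.39 ± 1.08 that missed the threshold (edgeR adjusted p = 0.302). The log2 values of the single comparisons were -0.99 for Mif deletion at 42 weeks, 1.40 for Mif deletion at 24 weeks, -1.27 for the longer diet in Apoe-/-Mif-/- and 1.12 for the longer diet in Apoe-/- arteries, with adjusted p from 0.482 to 0.755.

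H2-Ab1, the I-A beta chain, measured 1567, 196, 510 and 947 CPM in Apoe-/-Mif-/- and 946, 688, 768 and 788 CPM in Apoe-/- arteries at 42 weeks. Its means there were nearly equal, at 805 ± 594 in Apoe-/-Mif-/- and 797 ± 108 CPM in Apoe-/- arteries (log2 0.01 ± 0.63, edgeR adjusted p = 0.993). After 24 weeks the values were 1153, 1008, 2007 and 1171 CPM in Apoe-/-Mif-/- and 385, 447, 703 and 797 CPM in Apoe-/- arteries, and these groups did not overlap. H2-Ab1 was 1 of 7 tested class II genes with this pattern in that comparison, against 1.55% of all tested genes. The difference at 24 weeks was 2.29-fold and did not pass (log2 1.19 ± 0.64, adjusted p = 0.739), and the interaction was -1.18 ± 0.90 (adjusted p = 0.583).

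The make-up of the chain transcripts differed in the same arteries. H2-Eb1 took 2.60%, 21.7%, 8.36% and 1.29% of the counts of the 3 chains in Apoe-/-Mif-/- and 33.9%, 25.6%, 27.3% and 19.1% in Apoe-/- libraries at 42 weeks. The 24-week shares were 29.3%, 17.1%, 23.4% and 33.1% in Apoe-/-Mif-/- and 21.0%, 15.1%, 21.4% and 23.6% in Apoe-/- libraries. The share in the older Apoe-/-Mif-/- library 2 rested on 267 counts (exact Clopper-Pearson 95% interval 16.9% to 27.2%) and overlapped the other groups. In the other 3 libraries of that group the share lay below the lowest of the 12 others, with upper interval bounds of 3.15%, 9.39% and 1.75%. The group means were 8.49% ± 9.34 in Apoe-/-Mif-/- and 26.5% ± 6.09 in Apoe-/- libraries at 42 weeks (SD, n = 4 each). At 24 weeks they were 25.7% ± 6.99 in Apoe-/-Mif-/- and 20.3% ± 3.64 in Apoe-/- libraries. This share was chosen after the values were seen and was not tested, and its intervals cover counting error only. All 3 chains together made up 0.0854% ± 0.0447 of counts in Apoe-/-Mif-/- and 0.172% ± 0.0537 in Apoe-/- libraries at 42 weeks, and 0.300% ± 0.144 in Apoe-/-Mif-/- and 0.115% ± 0.0556 in Apoe-/- libraries at 24 weeks.

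**Figure D3:**
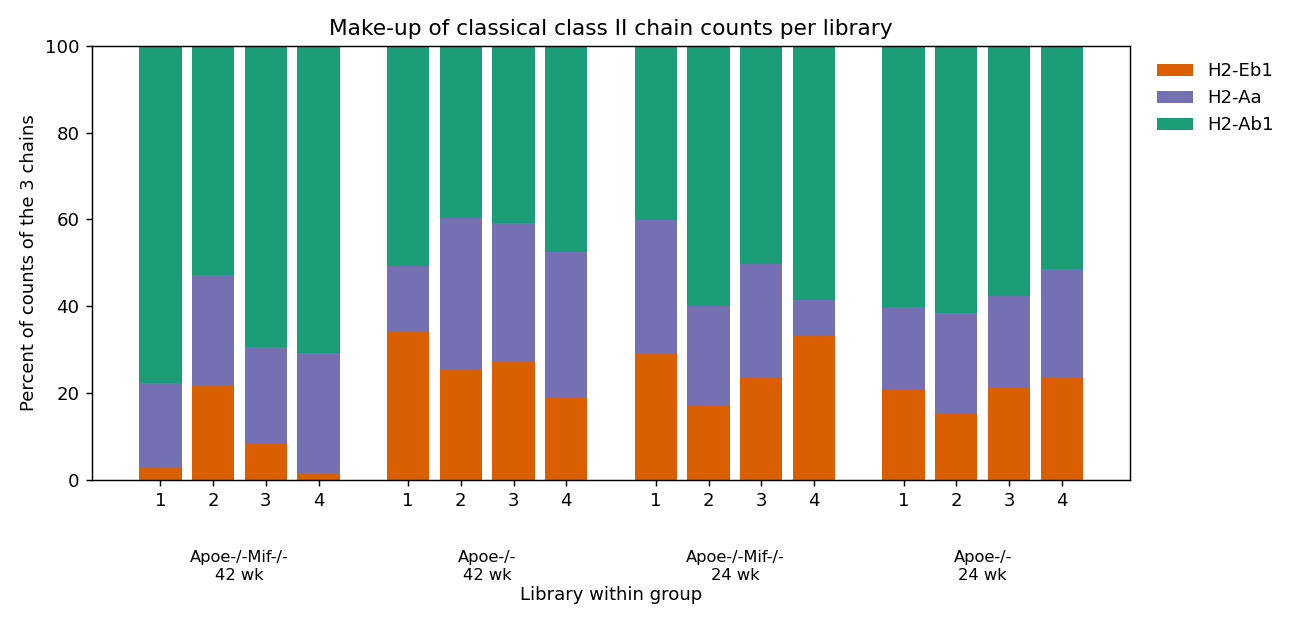
Percent of the summed counts of H2-Eb1, H2-Aa and H2-Ab1 that each chain took in each library (stacked bars, 4 libraries per group). H2-Eb1 takes 1.29% to 21.7% in the Apoe-/-Mif-/- libraries at 42 weeks and 15.1% to 33.9% in the other 12.

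Within groups, pooled over the 4 groups, H2-DMa and H2-DMb1 varied more between mice than the chains did. The pooled SD was 2.60 for H2-DMa and 2.08 for H2-DMb1 on the log2 CPM scale, against 0.73 to 0.90 for the 3 chains. In Apoe-/-Mif-/- arteries at 24 weeks this did not hold, with an SD of 1.04 for H2-DMa and 0.59 for H2-DMb1, against 1.22 for H2-Aa. H2-DMb1, a beta chain of DM, measured 11.3, 478, 33.0 and 494 CPM in Apoe-/-Mif-/- and 10.5, 87.2, 83.7 and 7.67 CPM in Apoe-/- arteries at 42 weeks. The 24-week values were 51.7, 93.3, 135 and 111 CPM in Apoe-/-Mif-/- and 2.53, 66.2, 63.1 and 4.06 CPM in Apoe-/- arteries. Both Apoe-/- groups and the older Apoe-/-Mif-/- group each split into 2 low and 2 higher libraries. The genotypes overlapped at both times, with log2 values of 2.41 ± 1.25 at 42 weeks and 1.52 ± 1.21 at 24 weeks (edgeR adjusted p = 0.308 and 0.901).

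H2-DMa, the DM alpha chain, measured 5.14, 11.1, 104 and 4.73 CPM in Apoe-/-Mif-/- and 0, 175, 2.60 and 8.37 CPM in Apoe-/- arteries at 42 weeks. The younger arteries held 96.9, 49.2, 58.8 and 17.1 CPM in Apoe-/-Mif-/- and 4.55, 19.4, 64.1 and 407 CPM in Apoe-/- arteries. Apoe-/- library 4 at 24 weeks, the one rich in T cell and thymus markers, held 39.6% of the H2-DMa CPM summed over all 16 libraries. No H2-DMa comparison passed (edgeR adjusted p from 0.742 to 0.965). H2-DMa overlaps Brd2 on the other strand by 360 bases in the GENCODE M21 annotation, and the library protocol does not mark strand, so reads there cannot be assigned with certainty.

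H2-DMb2, the second DM beta chain, was low in most libraries. It held 1, 1, 1 and 0 counts in Apoe-/-Mif-/- and 1, 0, 0 and 0 in Apoe-/- libraries at 42 weeks. The 24-week libraries held 9, 2, 1 and 3 counts in Apoe-/-Mif-/- and 30, 46, 2 and 0 in Apoe-/- libraries. The sum over all libraries was 97 counts, against 4711 for H2-DMb1, but in Apoe-/- library 1 at 24 weeks H2-DMb2 had 30 counts and H2-DMb1 had 5. Their longest coding transcripts are 94.6% identical over 1219 aligned bases, so the division of reads between the copies is uncertain, and no test was made for H2-DMb2.

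DO, which in B cells and some dendritic cells restrains DM, was rare. H2-Oa, its alpha chain, had 0 counts in 13 libraries. The others were Apoe-/- library 3 at 42 weeks with 36, Apoe-/- library 4 at 24 weeks with 4, and Apoe-/-Mif-/- library 2 at 24 weeks with 2. A count of 0 allows up to 3 counts, which is 0.718 to 4.18 CPM in the Apoe-/-Mif-/- libraries at 42 weeks, where all 4 were at 0. H2-Ob, the beta chain, held 2, 0, 84 and 0 counts in Apoe-/-Mif-/- and 2, 12, 0 and 0 in Apoe-/- libraries at 42 weeks. After 24 weeks its counts were 1, 0, 71 and 1 in Apoe-/-Mif-/- and 0, 20, 1 and 0 in Apoe-/- libraries. In 3 of the 4 groups 1 library held 92.8% to 96.9% of the H2-Ob CPM, and H2-Oa and H2-Ob were not high in the same libraries. No H2-Ob comparison passed (edgeR adjusted p from 0.711 to 0.959).

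Ciita, the transactivator, was near the detection limit. It held 0, 0, 13 and 1 counts in Apoe-/-Mif-/- and 0, 0, 1 and 0 in Apoe-/- libraries at 42 weeks. The 24-week counts were 9, 32, 57 and 3 in Apoe-/-Mif-/- and 9, 0, 16 and 15 in Apoe-/- libraries. It was detected in 7 of the 8 libraries at 24 weeks and in 3 of the 8 at 42 weeks. Pooled over libraries, Apoe-/- arteries held 1 count at 42 weeks against 40 at 24 weeks. Relative to the TMM-scaled library totals this was an 18.02-fold lower level, with an exact 95% counting interval of 3.05 to 729. The edgeR log2 value of that comparison was -4.37 ± 1.98 and did not pass (unadjusted p = 0.0338, adjusted p = 0.369). It was -0.65 with limma voom (adjusted p = 0.953), and -6.14 to -3.98 with a library left out, reaching -6.14 without Apoe-/- library 3 at 42 weeks, which held the 1 count. The pooled ratio of Apoe-/-Mif-/- to Apoe-/- at 42 weeks, 14 counts against 1, was 13.96 with an interval of 2.12 to 590.3, and 13 of the 14 counts came from library 3 (edgeR adjusted p = 0.416). These intervals cover counting error only, not the spread between mice. Ciita overlaps Dexi by 329 bases.

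**Figure D4:**
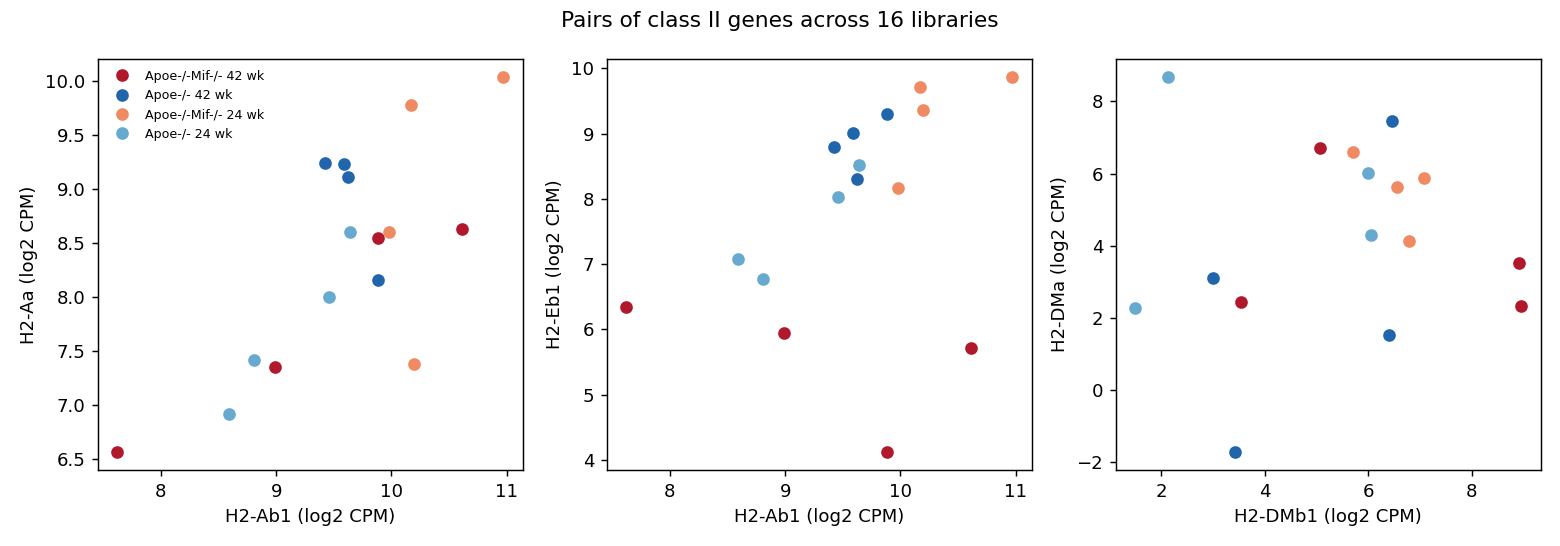
Log2 CPM of H2-Aa against H2-Ab1, H2-Eb1 against H2-Ab1, and H2-DMa against H2-DMb1, each point 1 of the 16 libraries and coloured by group. H2-Aa and H2-Ab1 rise together (r = 0.741), and the 4 lowest H2-Eb1 values are the Apoe-/-Mif-/- libraries at 42 weeks over a wide range of H2-Ab1.

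Across the 16 libraries the levels of H2-Aa and H2-Ab1 went together, with Pearson r = 0.741 (100000-resample permutation test, two-sided, p = 0.00085, adjusted p = 0.0085 over 10 pairs of the 5 genes with enough counts). Spearman's rho was 0.579 (permutation p = 0.0207, adjusted p = 0.161). Without the 2 libraries farthest from the median of H2-Aa, r was 0.551 (permutation p = 0.0417, n = 14) and rho 0.371 (permutation p = 0.192), so the rank relation on these levels did not hold without them. Among the 12 libraries with the letter B, r was 0.773 (permutation adjusted p = 0.0208) and rho 0.601 (permutation adjusted p = 0.440), and without the 2 farthest r was 0.501 (permutation p = 0.140). After each group's mean was taken out, r was 0.684 and rho 0.697 (permutation adjusted p = 0.0200 and 0.0380), and rho without the 2 farthest was 0.723 (permutation p = 0.00442). With RLE size factors rho was 0.741 (permutation adjusted p = 0.0153) and without the 2 farthest 0.626 (permutation p = 0.0198). H2-Aa with H2-Eb1 had r = 0.480 and H2-Ab1 with H2-Eb1 had r = 0.380 (permutation adjusted p = 0.302 and 0.487). No pair with H2-DMa or H2-DMb1 passed.

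The genes whose pattern was most like the mean log2 CPM of the 3 chains were ranked by Spearman's rho over the 16 libraries among 10627 genes. Among the highest were Ptar1 at 0.836, Rnf157 at 0.833, Orc5 at 0.791 and Tmem229b at 0.780. With group means taken out they were Cecr2 at 0.917, Smc3 at 0.873, Sec22a at 0.850, Fam193b at 0.847 and Smim7 at 0.821. Cd74 had rho 0.638 (rank 43) on levels and 0.706 (rank 52) on residuals. The libraries share depth and make-up across all genes, so these values are a description with no test.

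The invariant chain gene Cd74 measured 336, 135, 132 and 129 CPM in Apoe-/-Mif-/- and 124, 606, 223 and 269 CPM in Apoe-/- arteries at 42 weeks. After 24 weeks Cd74 stood at 749, 274, 941 and 233 CPM in Apoe-/-Mif-/- and 109.6, 184, 261 and 197 CPM in Apoe-/- arteries. The genotypes overlapped at both times. Its interaction was -2.29 ± 1.12 on the log2 scale (edgeR adjusted p = 0.347).

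Cd74 belongs to a list of 9 partners and processing enzymes of class II, of which 6 were tested. None was called in any of the 5 comparisons. The log2 value was below 0 for 6 of 6 in the interaction (median -1.55, against 0.26 over all tested genes) and for 6 of 6 under Mif deletion at 42 weeks (median -0.79, against 0.09). Next to Cd74 the smallest interaction p-value was that of the lysosomal protease Ctsl (log2 -1.61, edgeR adjusted p = 0.389). It was above 0 for 6 of 6 under Mif deletion at 24 weeks (median 0.76, against -0.18) and for 6 of 6 with the longer diet in Apoe-/- arteries (median 0.99, against -0.12). With the longer diet in Apoe-/-Mif-/- arteries it was below 0 for 5 of 6 (median -0.52, against 0.12), which turned to 3 of 6 with RLE size factors (median 0.04). The smallest p-values in Apoe-/- arteries belonged to the lysosomal proteases Ctsb (log2 1.53 ± 0.49, edgeR adjusted p = 0.322) and Ctss, which trims the invariant chain (log2 1.43 ± 0.62, edgeR adjusted p = 0.354). H2-Ea, the alpha chain that pairs with H2-Eb1 in the I-E molecule, held 0, 10, 0 and 0 counts in Apoe-/-Mif-/- libraries at 42 weeks. The Apoe-/- libraries of that time held 0, 0, 0 and 1. At 24 weeks H2-Ea held 0 counts in all Apoe-/-Mif-/- libraries and 1, 53, 1 and 0 in Apoe-/- libraries. Most libraries were thus at or near 0, and H2-Ea was not tested.

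No gene of the other class II lists was called either. Of the promoter factors, the RFX and NF-Y subunits and Creb1, 6 of 7 were tested, and 5 of 6 lay above 0 in the interaction (median 1.34, against 0.26 over all tested genes). The smallest p-values were those of Rfxap (log2 2.15, edgeR adjusted p = 0.698) and Nfya (log2 2.24, adjusted p = 0.717). Of the interferon gamma pathway 7 of 8 genes were tested, with 5 of 7 above 0 in the interaction (median 1.70), led by the receptor kinase Jak1 (log2 2.37, edgeR adjusted p = 0.545) and its inhibitor Socs1 (log2 2.33, adjusted p = 0.711). Ifng itself had 0 counts in all 16 libraries. Of the T cell side, such as Cd4 and the costimulatory Cd80 and Cd86, 4 of 7 were tested, with 2 above and 2 below 0 in the interaction, where Cd83 (log2 -2.20) and Cd40 (log2 -1.12) had edgeR adjusted p = 0.671 and 0.894. The class I genes, which present peptides from the cytosol, had 3 of 9 above and 6 of 9 below 0 in the interaction (median -0.70), with H2-K1 at log2 -1.43 and H2-D1 at log2 -0.70 (edgeR adjusted p = 0.439 and 0.698). The heavy chain gene H2-K1 averaged 753 ± 162 CPM in Apoe-/-Mif-/- and 1379 ± 576 CPM in Apoe-/- arteries at 42 weeks (SD, n = 4 each). At 24 weeks it averaged 1055 ± 232 CPM in Apoe-/-Mif-/- and 717 ± 286 CPM in Apoe-/- arteries. RLE size factors moved the median log2 value of all genes by 0.06 to 0.42 over the 5 comparisons, and no tested class II gene changed direction with them.

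**Figure D5:**
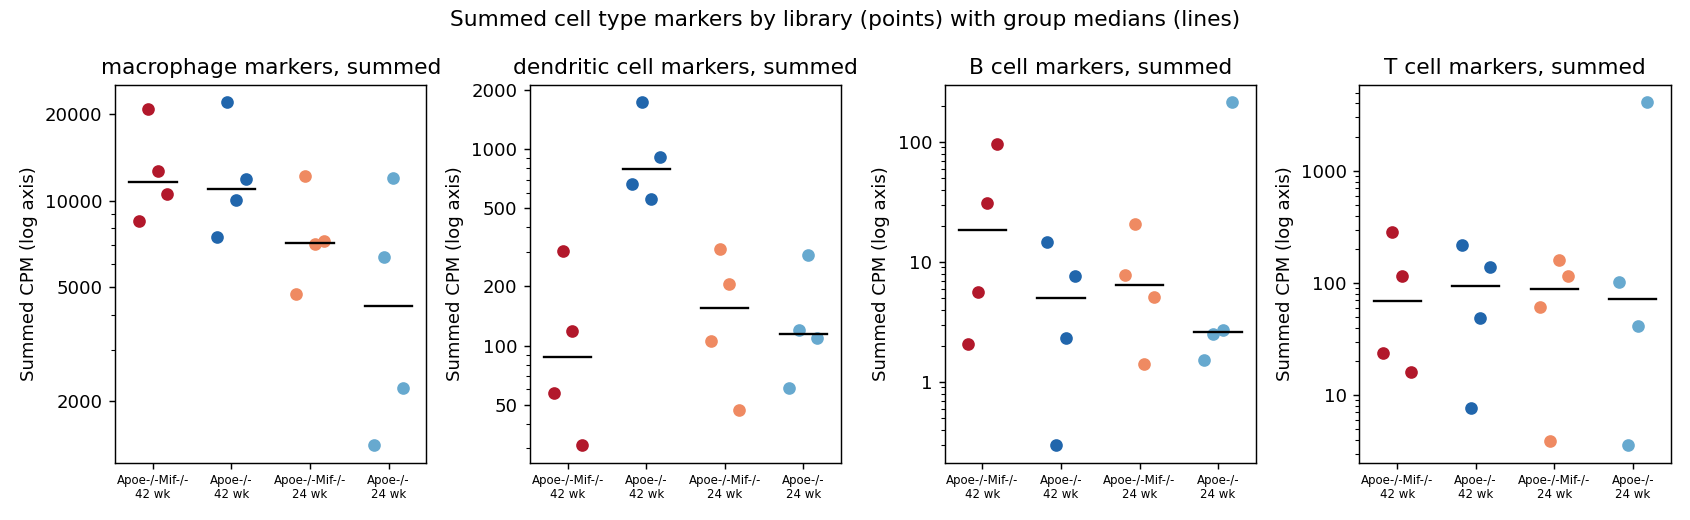
Summed CPM (log axis) of macrophage, dendritic cell, B cell and T cell marker genes per library (points), with group medians as lines. Dendritic cell markers sum to 31.0 to 305 CPM in Apoe-/-Mif-/- and 557 to 1741 CPM in Apoe-/- arteries at 42 weeks. Most of the sum in these Apoe-/- arteries is Itgax.

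Markers of the cell types that a section can hold were summed per library. The 8 dendritic cell markers summed to 31.0 to 305 CPM in Apoe-/-Mif-/- and 557 to 1741 CPM in Apoe-/- arteries at 42 weeks. At 24 weeks they summed to 47.2 to 312 CPM in Apoe-/-Mif-/- and 61.1 to 288 CPM in Apoe-/- arteries. Of the 4 tested, 4 lay below 0 for Mif deletion at 42 weeks (median log2 -2.57), none called, and 0 of 4 had groups that did not overlap, against 1.03% of all tested genes. Itgax, which encodes CD11c and made up most of the sum in Apoe-/- arteries at 42 weeks, averaged 110.3 ± 129 CPM in Apoe-/-Mif-/- and 867 ± 609 CPM in Apoe-/- arteries at 42 weeks (log2 -2.98 ± 1.00, edgeR adjusted p = 0.176). Its groups overlapped, at 17.2 to 300.8 CPM in Apoe-/-Mif-/- and 250.02 to 1693 CPM in Apoe-/- arteries. The dendritic cell sum in Apoe-/- arteries at 42 weeks is thus mainly a reading of Itgax. It does not by itself show a difference in dendritic cells. Clec9a, another listed marker, held 1 count over the 4 Apoe-/- libraries at 42 weeks and 0 in the other 12 libraries. Macrophage markers, 8 of 8 detected, summed to 8479 to 20868 CPM in Apoe-/-Mif-/- and 7449 to 22091 CPM in Apoe-/- arteries at 42 weeks, and to 4707 to 12191 CPM in Apoe-/-Mif-/- and 1395 to 11973 CPM in Apoe-/- arteries at 24 weeks. B cell markers summed to 2.05 to 95.9 CPM in Apoe-/-Mif-/- and 0.295 to 14.8 CPM in Apoe-/- arteries at 42 weeks, with Ms4a1, Pax5 and Cr2 at 0 in all 4 Apoe-/-Mif-/- libraries. At 24 weeks they summed to 1.42 to 20.7 CPM in Apoe-/-Mif-/- and 1.52 to 215 CPM in Apoe-/- arteries. T cell markers, 8 of 8 detected in each group, summed to 15.9 to 285.5 CPM in Apoe-/-Mif-/- and 7.68 to 219 CPM in Apoe-/- arteries at 42 weeks, and to 3.90 to 161 CPM in Apoe-/-Mif-/- and 3.55 to 4116 CPM in Apoe-/- arteries at 24 weeks. In the interaction 6 of 7 tested T cell markers lay above 0 (median log2 5.95), against 54.0% of all tested genes, none called. At 24 weeks Apoe-/- library 4 alone had the 4116 CPM of T cell markers, against 3.55 to 101.5 CPM in the others of its group. The group medians of this sum at 24 weeks were 88.6 CPM in Apoe-/-Mif-/- and 71.4 CPM in Apoe-/- arteries. Of the macrophage markers 7 of 8 lay below 0 in the interaction (median -0.65, against 0.26 over all tested genes), none called. Of the tested dendritic cell markers 3 of 4 lay below 0 (median -2.03), and the 1 tested B cell marker lay above 0, again with none called. The part of these cell types in the class II results was not tested.

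The adipocyte genes Plin1 and Ucp1 were called in the same interaction as H2-Eb1, in the opposite direction. Plin1, a lipid droplet protein, and Ucp1, the uncoupling protein of brown fat, had log2 values of 12.58 ± 2.36 and 11.89 ± 2.23 (edgeR adjusted p = 0.0136 each), and 5 of 5 tested adipocyte markers lay above 0. The 6 adipocyte markers summed to 312 to 4419 CPM in Apoe-/-Mif-/- and 74.8 to 1534 CPM in Apoe-/- arteries at 42 weeks. At 24 weeks they summed to 35.2 to 219.7 CPM in Apoe-/-Mif-/-, with Lep at 0, and 69.1 to 9672 CPM in Apoe-/- arteries. Kdr, an endothelial growth factor receptor, had a log2 value of 9.64 ± 2.32 (adjusted p = 0.0432), while the other 5 of 6 endothelial markers lay below 0, none called. Plin1 was also called in 2 other comparisons, with log2 -9.39 ± 1.91 for Mif deletion at 24 weeks (edgeR adjusted p = 0.0466) and 8.91 ± 1.88 for the longer diet in Apoe-/-Mif-/- arteries (edgeR adjusted p = 0.0401). Of all tested genes 0.583% were called higher in the interaction. With either limma fit, or without Apoe-/- library 1 at 24 weeks, no gene was called in the interaction or for Mif deletion at 24 weeks. Some other fits with a library left out also called none. For the longer diet no gene was called when any Apoe-/-Mif-/- library at 24 weeks was left out. Of the erythroid markers, such as the globins, 5 of 5 lay below 0 in the interaction (median log2 -2.38) and for Mif deletion at 42 weeks (median -1.13, 4 of 5 with RLE size factors), none called. All 5 lay above 0 at 24 weeks for Mif deletion (median 1.38) and in Apoe-/- arteries for the longer diet (median 3.76), and for the longer diet in Apoe-/-Mif-/- arteries 4 of 5 did (median 1.36), again with none called. They summed to 984 to 6301 CPM in Apoe-/-Mif-/- and 546 to 20088 CPM in Apoe-/- arteries at 42 weeks, and to 209.6 to 1733 CPM in Apoe-/-Mif-/- and 136 to 1269 CPM in Apoe-/- arteries at 24 weeks. The part of these cell types in the H2-Eb1 result was not tested.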

How the data were processed

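Per the labels' protocols, RNA was taken from pooled 5 µm sections of each artery and 1 ng was amplified into poly(A) libraries that do not mark strand. Per the submitters' processing notes, FastQC 0.11.5, Trim Galore 0.6.4, cutadapt 1.18 and STAR 2.5.2b were used with build GRCm39; the counting program is not given in the sources used here. The authors deposited whole-number read counts per gene and a table of variance-stabilised values on a log2 scale for 9578 genes, which served as an alternative only. Of 55359 rows, 1 with no gene name (at most 0.00257% of a library) and 2 reporter rows were left out.

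Counts of all 16 libraries (378066 to 8649525 per library, where 3 counts make 0.327 to 6.32 CPM) were fitted in 4 groups with edgeR 4.0.16, using TMM factors, filterByExpr (minimum count 10) and the quasi-likelihood test with 12 residual degrees of freedom and Benjamini-Hochberg adjustment over 10634 genes. CPM use TMM-scaled totals. The edgeR test gives no standard error, so each SE is the size of the log2 value divided by the square root of its F statistic. The fit was tested on simulated data. The alternatives were robust dispersion, RLE factors, other filters, DESeq2 1.42.0, limma 3.58.1, the compared groups alone and leaving out each library. Correlations and sequence searches used Python 3.11.15. Sequences are RefSeq windows on GRCm38.p6, and transcript lengths and overlaps come from GENCODE M21, a different build from that of the counts, so no coordinates were joined to counts.

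The genes, the lists and the tests were chosen with earlier results of these data known. All 9 genes are named. From a list, the genes called over all genes are named, and otherwise up to 2 with the smallest p. Genes named outside this rule (H2-Ea, Itgax, Clec9a and the B cell markers at 0) were chosen for their role or after their values were seen. Some genes that this rule would name are not reported here.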

Additional observations from a re-analysis of the deposited data

Results flagged for a closer look

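The effect of Mif deletion on H2-Eb1 differed between 42 and 24 weeks, with an interaction of -4.82 on the log2 scale (edgeR adjusted p = 0.0388). The Apoe-/-Mif-/- minus Apoe-/- difference was -3.17 at 42 weeks and 1.64 at 24 weeks.

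Sets of 4 libraries were searched for a library far from the other 3, for each of the 9 genes and for the H2-Eb1 share of chain counts in each group. For the genes the search was made on log2 CPM, so a library can lie far from the others in CPM and not be listed. An example is H2-DMa in Apoe-/- arteries at 42 weeks, with 175 CPM in library 2 and at most 8.37 CPM in the others. Of 35 sets, 4 held one, and 5 sets with a 0 and fewer than 3 counts in every library were left out. H2-Aa was 284.5 CPM in Apoe-/- library 1 at 42 weeks, the shallowest library, against 552 to 602 CPM in the others of that group. H2-Ob was 3.38 CPM in Apoe-/- library 2 at 24 weeks, from 20 counts, against 0 or 1 count in the others. H2-Oa was 9.36 CPM, from 36 counts, in Apoe-/- library 3 at 42 weeks and 1.25 CPM, from 4 counts, in Apoe-/- library 4 at 24 weeks, against 0 in the others of each group. For 4 values from a normal distribution, chance gives such a gap in about 1 in 20 sets. That rate does not hold for sparse counts. Both H2-Oa sets had 0 in all libraries but 1, which fixes the gap at its largest.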

How the results depend on the processing

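No paired analysis was possible because each library came from its own mouse and the replicate numbers are only names. The called genes over the whole table numbered 0 for Mif deletion at 42 weeks, against 150 without a low-count filter, 727 with DESeq2, 25 from the compared groups alone and 0 to 1 with a library left out. For Mif deletion at 24 weeks they numbered 5, against 117 without the filter, 264 with DESeq2, 1 with at least 20 counts in 4 libraries, 0 with RLE factors, either limma fit or the compared groups alone, and 0 to 21 with a library left out. For the longer diet in Apoe-/-Mif-/- they numbered 13, against 22 with RLE, 419 without the filter, 535 with DESeq2, 2 and 5 with limma on the deposited values and voom, and 0 to 36 with a library left out. In Apoe-/- they numbered 0, against 18 without the filter, 346 with DESeq2 and 0 to 0 with a library left out. For the interaction they numbered 73, against 426 without the filter, 498 with DESeq2, 0 with either limma fit and 0 to 124 with a library left out. The called class II genes numbered 1 in place of 0 at 42 weeks with DESeq2 (0 to 0 with a library left out), 1 in place of 0 for the longer diet in Apoe-/-Mif-/- with robust dispersion, no filter or DESeq2 (0 to 1), and 0 in place of 1 in the interaction with RLE or either limma fit (0 to 1).

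Some log2 values that did not pass turned their sign with limma on the deposited values and with voom: H2-Ab1 (-0.15 and -0.30) and H2-DMa (0.81 and 1.62) for Mif deletion at 42 weeks, H2-DMa (0.19 and 0.52) at 24 weeks, and H2-DMb1 (-0.37 and -0.13) in the interaction. With voom alone H2-DMb1 turned for the longer diet in Apoe-/-Mif-/- (-0.22) and in Apoe-/- (-0.093), and H2-Ob (0.066) and Ciita (-2.21) in the interaction. With a library left out, Mif deletion at 42 weeks spanned -2.78 to 2.83 for H2-DMa, -0.49 to 0.47 for H2-Ab1 and -2.15 to 2.28 for H2-Ob, and at 24 weeks -1.54 to 0.91 for H2-DMa and -1.31 to 5.43 for H2-Ob. The longer diet spanned -3.25 to 3.84 for H2-Ob in Apoe-/-Mif-/- and -4.90 to 0.67 for H2-DMa in Apoe-/-, and the interaction -4.23 to 2.86 for H2-Ob, -1.64 to 4.05 for H2-DMa and -0.53 to 3.48 for Ciita. Rank correlations near 0 turned sign for H2-Aa with H2-DMb1 (-0.00882 with RLE, -0.0471 on residuals), H2-Ab1 with H2-DMb1 (-0.00294, -0.135 and -0.119 in libraries with the letter B), H2-Eb1 with H2-DMb1 (-0.00882, -0.129 and -0.273 in libraries with the letter B) and H2-Eb1 with H2-DMa (-0.0979 in libraries with the letter B). The median log2 value of the tested class II genes spanned -0.82 to 2.28 for Mif deletion at 42 weeks with a library left out and -0.57 to 0.82 under the other settings, and for the longer diet in Apoe-/-Mif-/- it spanned -3.03 to -0.58 over all of them. The cause was not tested. Depth limits Ciita, H2-DMb2, H2-Oa and H2-Ob, whose levels lay near 3 counts in most libraries.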
